A study of Mus musculus with 28 samples.

Results

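Ikzf1 to Ikzf5 encode the Ikaros family of zinc-finger transcription factors, and their transcripts were followed here across 4 CD4 T cell populations of mice with and without the Foxp3 enhancer CNS3. The 5 genes were taken by symbol from the deposited count tables, which list 23420 gene symbols, and 5 of 5 were among the 13338 symbols abundant enough to test. Within the family, Ikzf1 made up most of the message in thymic CD4 single-positive cells, whereas Ikzf2 and Ikzf4 were far more abundant in regulatory T (Treg) cells and Ikzf3 was highest in the splenic aTreg population. Between genotypes, Ikzf1 was lower in KO than in WT thymic Treg cells, and Ikzf2 was higher in KO than in WT thymic CD4 single-positive cells. Neither of these calls was kept in every other setting of the fit. Ikzf4 was higher in KO cells on average over the 3 Treg populations, although no single population passed the test. That average was added after the values had been seen.

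All mice were males of 6 to 8 weeks that carried a green fluorescent reporter in the Foxp3 gene, which marks Treg cells. KO mice carried the Foxp3ΔCNS3-gfp allele, which lacks conserved non-coding sequence 3, and WT mice the Foxp3-gfp allele with that sequence intact. Cells were sorted as splenic aTreg, splenic rTreg, thymic Treg and thymic mCD4SP cells (labelled as non-Treg CD4 single-positive, here CD4SP), with 4 KO libraries and 3 WT libraries for each population, so 28 libraries in 8 groups. The titles do not expand the r and a. CNS3 is an enhancer in an intron of Foxp3 and is known to help switch the gene on during Treg development in the thymus. The comparison of genotypes asks what its loss does to Treg cells and to non-Treg CD4 cells of the thymus. The design text names littermates of both genotypes sorted together but does not tie each library to an animal. The p-values therefore measure the spread between libraries, which may in part be technical.

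Ikaros family proteins bind DNA through zinc fingers near one end and pair with each other through zinc fingers near the other end, so that one member can work in complexes with another. Ikzf1 encodes Ikaros, the founding member, which is needed for lymphocyte development and recruits the NuRD chromatin-remodelling complex. Ikzf3 encodes Aiolos, which is known from B cells and from differentiated T cells. Ikzf2 encodes Helios and Ikzf4 encodes Eos, both known as Treg factors, and Eos is described as a FOXP3 partner in gene silencing. Ikzf5 encodes Pegasus, the most divergent member considered here, about which less is known in T cells.

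Library depth ran from 22037995 to 40754492 counts in genes, and the 5 members drew between 905 and 68575 counts in any library. The count totals leave little counting error on any member, and the spread between libraries set the precision. The 6 listed T cell markers summed to between 6049.5 and 9739 CPM in the 28 libraries. Foxp3 was present in every Treg library, at 446 to 671 CPM (counts scaled to library size) across the 6 Treg groups, and averaged 1.44 ± 0.363 CPM in KO CD4SP and 3.37 ± 0.131 CPM in WT CD4SP cells (SD, n = 4 and 3). CNS3 is not part of the exons that were counted, so Foxp3 counts do not check the deletion itself. In thymic Treg libraries the summed level of 10 myeloid markers was 451 to 1024 CPM in KO and 283 to 408 CPM in WT. The share of reads that lay in no gene, of those in 1 gene, in several genes or in none, was 43.1 ± 1.27% in KO and 47.5 ± 1.55% in WT thymic Treg libraries. KO CD4SP library 2 stood apart from the other 3 of its group, with higher levels of immature thymocyte, dendritic, myeloid and CD8 T cell markers. Because these are bulk libraries, fewer cells that express a gene and less RNA of it per cell cannot be told apart.

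In the GENCODE M21 annotation of mouse build GRCm38, Ikzf1 lies on the plus strand at chr11:11685003-11772926 and Ikzf3 on the minus strand of the same chromosome at chr11:98464902-98546031. Ikzf2 lies at chr1:69531214-69687245, Ikzf4 at chr10:128630843-128645991 and Ikzf5 at chr7:131388652-131410521, all on the minus strand. Their joined exons span 5.777 kb for Ikzf1, 11.61 kb for Ikzf2, 8.754 kb for Ikzf3, 5.995 kb for Ikzf4 and 5.721 kb for Ikzf5, and these lengths are used wherever levels of different members are compared. Ikzf5 needs caution, because 81.31% of its exon bases are also exon of Pstk, a gene on the opposite strand that the tables count too. The use of strand in counting is not stated in the sources at hand, so Ikzf5 values may miss or include reads of the shared stretch. Antisense transcripts cover 1.24% of the exon bases of Ikzf2 and 0.6172% of those of Ikzf4, and neither transcript was counted as a gene of its own.

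Promoter sequences from RefSeq (GRCm38.p6, 250 bases before to 50 bases after a transcription start) matched 2 of the 5 members. They are Ikzf5 with 1 entry and Ikzf1 with 2, and they are shown because these members have an entry and because Ikaros proteins bind DNA at a GGGAA core. They are written in the direction of transcription, with GGGAA, or TTCCC where the core lies on the other strand, in capitals.
Ikzf5, chr7:131410429-131410728, minus strand: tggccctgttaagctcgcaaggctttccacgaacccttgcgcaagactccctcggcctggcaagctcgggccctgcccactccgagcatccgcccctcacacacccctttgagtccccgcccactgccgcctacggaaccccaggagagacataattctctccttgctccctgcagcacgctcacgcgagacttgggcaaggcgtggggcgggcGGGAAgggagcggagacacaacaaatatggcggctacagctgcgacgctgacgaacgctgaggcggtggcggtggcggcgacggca
Ikzf1 first start, chr11:11685675-11685974, plus strand: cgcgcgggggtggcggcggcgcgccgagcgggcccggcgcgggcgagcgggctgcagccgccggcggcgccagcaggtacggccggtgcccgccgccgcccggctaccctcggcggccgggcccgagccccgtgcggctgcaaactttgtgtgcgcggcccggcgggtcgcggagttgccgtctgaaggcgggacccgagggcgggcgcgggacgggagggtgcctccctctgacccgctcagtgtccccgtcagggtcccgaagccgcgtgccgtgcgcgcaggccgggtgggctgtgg
Ikzf1 second start, chr11:11689927-11690226, plus strand: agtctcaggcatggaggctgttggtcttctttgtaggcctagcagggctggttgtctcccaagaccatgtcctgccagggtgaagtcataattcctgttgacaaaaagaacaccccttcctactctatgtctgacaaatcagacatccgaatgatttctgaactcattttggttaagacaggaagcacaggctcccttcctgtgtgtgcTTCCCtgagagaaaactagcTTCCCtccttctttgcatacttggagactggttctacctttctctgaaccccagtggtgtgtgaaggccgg

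The Ikzf5 window held 1 GGGAA on the strand shown, the first Ikzf1 window held 0 matches on either strand, and the second Ikzf1 window held 2 on the other strand. GGGAA on either strand occurred in 62.7% of all 32851 RefSeq promoter windows of the same length, so a match is common. The longer TGGGAA, which contains GGGAA, occurred in 25.56% of all windows and in none of these 3. The first Ikzf1 window was the most GC-rich of the 3, at 81.33% GC with 52 CpG sites. The Ikzf5 window had 65.67% GC with 27 CpG sites, and the second Ikzf1 window had 49% GC with 2 CpG sites, against a median over all windows of 52.67% GC and 7 CpG sites.

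Per kilobase of exon, the family's make-up differed far more between CD4SP and Treg cells than between genotypes. In CD4SP cells Ikzf1 supplied 85.9 ± 1.86% of the summed family level in KO and 88.0 ± 0.461% in WT libraries (CPM per kb, SD, n = 4 and 3). In the Treg populations Ikzf1 supplied less, at 21.98% in KO and 24.9% in WT aTreg cells, 37.8% in KO and 43.5% in WT rTreg cells, and 24.5% in KO and 30.8% in WT thymic Treg cells. Ikzf2 was the largest contributor in aTreg cells (50.2% in KO and 46.7% in WT) and in thymic Treg cells (46.3% in KO and 43.2% in WT). In rTreg cells Ikzf2 supplied 38.0% in KO, close to Ikzf1 there, and 33.5% in WT, where Ikzf1 was the largest contributor.

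Ikzf4 reached its largest share in thymic Treg cells, at 22.4% in KO and 19.5% in WT. Ikzf3 reached its largest share in aTreg cells, at 13.0% in KO and 15.9% in WT. The summed level of the 5 members varied little by comparison, between 249 and 326 CPM per kb over the 8 groups, and was 295 ± 11.1 in KO and 275 ± 11.0 in WT aTreg cells. It was 285 ± 7.46 in KO and 273 ± 14.0 in WT rTreg cells, 315 ± 20.9 in KO and 326 ± 15.0 in WT thymic Treg cells, and 254 ± 15.8 in KO and 249 ± 11.1 in WT CD4SP cells.

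**Figure D1:**
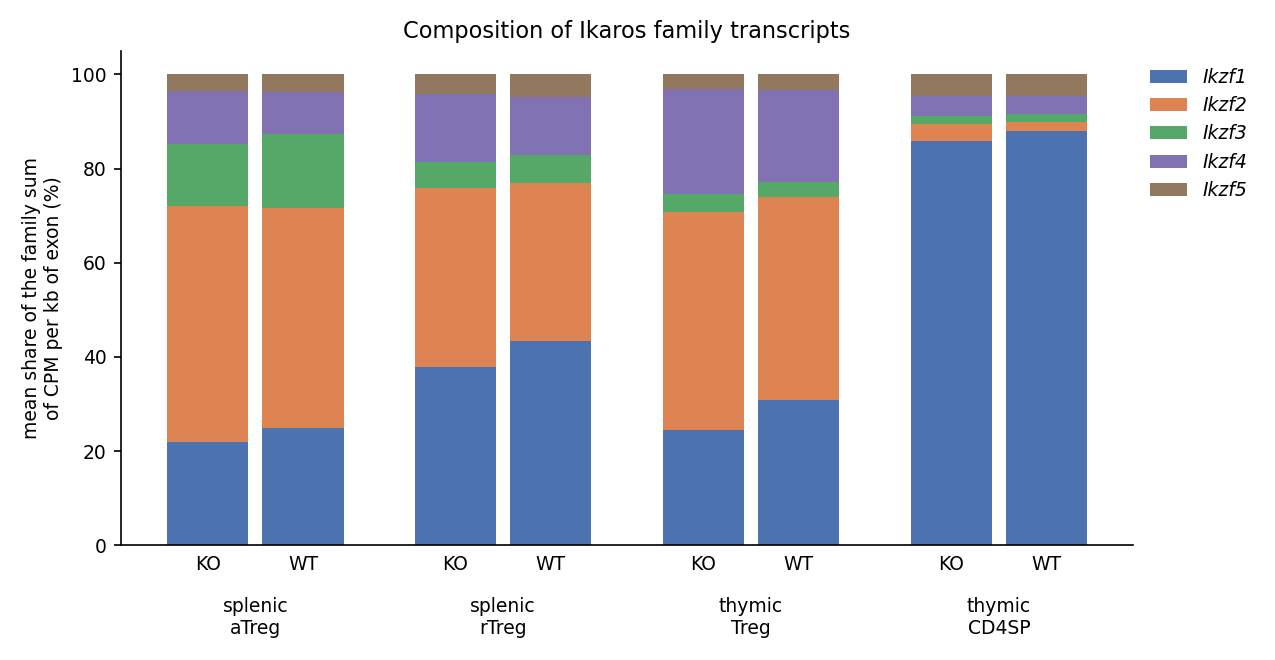
Mean share of each member in the family sum of CPM per kb of exon (vertical axis, %), for KO (n = 4) and WT (n = 3) libraries of each population (horizontal axis); each bar adds to 100%. Ikzf1 fills 85.9% of the KO and 88.0% of the WT bar in CD4SP cells, while Ikzf2 is the largest block in aTreg and thymic Treg cells.

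Ikzf1 (Ikaros) was the member with the clearest split between CD4SP and Treg cells in the direction of less transcript in Treg cells. It stood at 354.8, 376.6, 385.6 and 381.1 CPM in KO aTreg libraries and at 404.7, 404.9 and 375.6 CPM in WT aTreg libraries. It stood at 634.6, 606.9, 623.1 and 627.0 CPM in KO rTreg libraries and at 716.8, 648.0 and 693.4 CPM in WT rTreg libraries. The 2 genotypes overlapped in aTreg cells, but in rTreg cells each KO library was below each WT library. Overlap is given here and below as description, because its share over all tested genes was not counted. Ikzf1 stood at 450.8, 447.0, 401.2 and 488.1 CPM in KO thymic Treg libraries and at 607.9, 574.4 and 558.3 CPM in WT thymic Treg libraries. In CD4SP cells it stood at 1240.7, 1123.03, 1325.3 and 1355.9 CPM in KO and at 1338.4, 1217.5 and 1247.1 CPM in WT. The thymic Treg genotypes did not overlap, whereas the CD4SP genotypes did. From highest to lowest the populations ran CD4SP, rTreg, thymic Treg and aTreg in both genotypes, and the highest group mean was 3.38 times the lowest. In the order of the 8 group means, neighbours whose ranges overlapped were the CD4SP genotypes, KO rTreg and WT thymic Treg cells, KO thymic Treg and WT aTreg cells, and the aTreg genotypes.

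Ikzf3 (Aiolos) was lowest in CD4SP cells and higher in thymic Treg, rTreg and aTreg cells, in that order. In aTreg libraries it stood at 315.1, 378.6, 333.8 and 315.2 CPM in KO and at 402.1, 355.8 and 387.2 CPM in WT. In rTreg libraries it stood at 134.1, 153.6, 130.4 and 142.7 CPM in KO and at 139.9, 136.6 and 143.2 CPM in WT. The genotypes overlapped in both splenic populations. In thymic Treg libraries Ikzf3 stood at 95.5, 111.3, 96.7 and 106.1 CPM in KO and at 94.9, 85.5 and 87.7 CPM in WT. In CD4SP libraries it stood at 37.0, 48.1, 38.4 and 33.3 CPM in KO and at 37.5, 28.2 and 40.9 CPM in WT. Each KO thymic Treg library was above each WT one, narrowly, and the CD4SP genotypes overlapped. The highest group mean, in WT aTreg cells, was 10.7 times the lowest, in WT CD4SP cells. Neighbours in the order of group means overlapped between genotypes of aTreg, rTreg and CD4SP cells, and the other 4 of 7 neighbouring pairs did not.

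Ikzf2 (Helios) had the widest range of the 5 members. In aTreg libraries it stood at 1751.2, 1800.1, 1552.7 and 1784.0 CPM in KO and at 1480.5, 1567.1 and 1425.5 CPM in WT. In rTreg libraries it stood at 1197.1, 1271.5, 1188.2 and 1374.0 CPM in KO and at 1046.0, 971.0 and 1179.2 CPM in WT. A single KO aTreg library fell within the WT range, and in rTreg cells the genotypes did not overlap. In thymic Treg libraries it stood at 1583.2, 2005.1, 1551.6 and 1654.2 CPM in KO and at 1744.1, 1544.0 and 1611.4 CPM in WT. In CD4SP libraries it stood at 91.5, 147.6, 93.4 and 74.3 CPM in KO and at 44.7, 53.0 and 71.0 CPM in WT. The thymic Treg genotypes overlapped, and in CD4SP cells each KO library was above each WT library. The highest group mean, in KO aTreg cells, was 30.6 times the lowest, in WT CD4SP cells, and the means of the 4 highest groups (KO aTreg, KO thymic Treg, WT thymic Treg and WT aTreg) overlapped in range with their neighbours in that order.

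Ikzf4 (Eos) was highest in thymic Treg cells and lower in the spleen. In aTreg libraries it stood at 213.5, 200.1, 195.9 and 198.0 CPM in KO and at 171.8, 140.9 and 123.9 CPM in WT. In rTreg libraries it stood at 253.9, 246.7, 238.6 and 239.9 CPM in KO and at 215.0, 197.8 and 193.9 CPM in WT. In both splenic populations each KO library was above each WT library. In thymic Treg libraries it stood at 477.0, 358.7, 381.7 and 470.4 CPM in KO and at 391.6, 387.4 and 362.9 CPM in WT. In CD4SP libraries it stood at 68.9, 60.4, 64.6 and 65.9 CPM in KO and at 61.9, 59.0 and 50.4 CPM in WT. Both thymic populations overlapped between genotypes, and KO thymic Treg libraries were split between a higher and a lower pair. The highest group mean, in KO thymic Treg cells, was 7.39 times the lowest, in WT CD4SP cells. Neighbours that overlapped were the thymic Treg genotypes, WT rTreg with KO aTreg cells, and the CD4SP genotypes.

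Ikzf5 (Pegasus) was nearly level throughout. It ranged from 55.1 to 61.4 CPM in KO and from 56.3 to 62.8 CPM in WT aTreg libraries, and from 63.5 to 74.3 CPM in KO and from 72.4 to 77.6 CPM in WT rTreg libraries. It ranged from 48.5 to 60.4 CPM in KO and from 58.1 to 65.7 CPM in WT thymic Treg libraries, and from 60.8 to 71.998 CPM in KO and from 63.5 to 67.2 CPM in WT CD4SP libraries. The genotypes overlapped in all 4 populations, and the highest group mean was 1.35 times the lowest. In the order of its 8 group means, 7 of 7 neighbouring pairs overlapped in range.

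Libraries of one group lay close together for most members. The median coefficient of variation within groups was 4.67% for Ikzf1, 8.37% for Ikzf2, 7.39% for Ikzf3, 5.48% for Ikzf4 and 6.00% for Ikzf5. The widest spread was that of Ikzf2 in KO CD4SP cells, at 31.3%, where library 2 was highest.

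**Figure D2:**
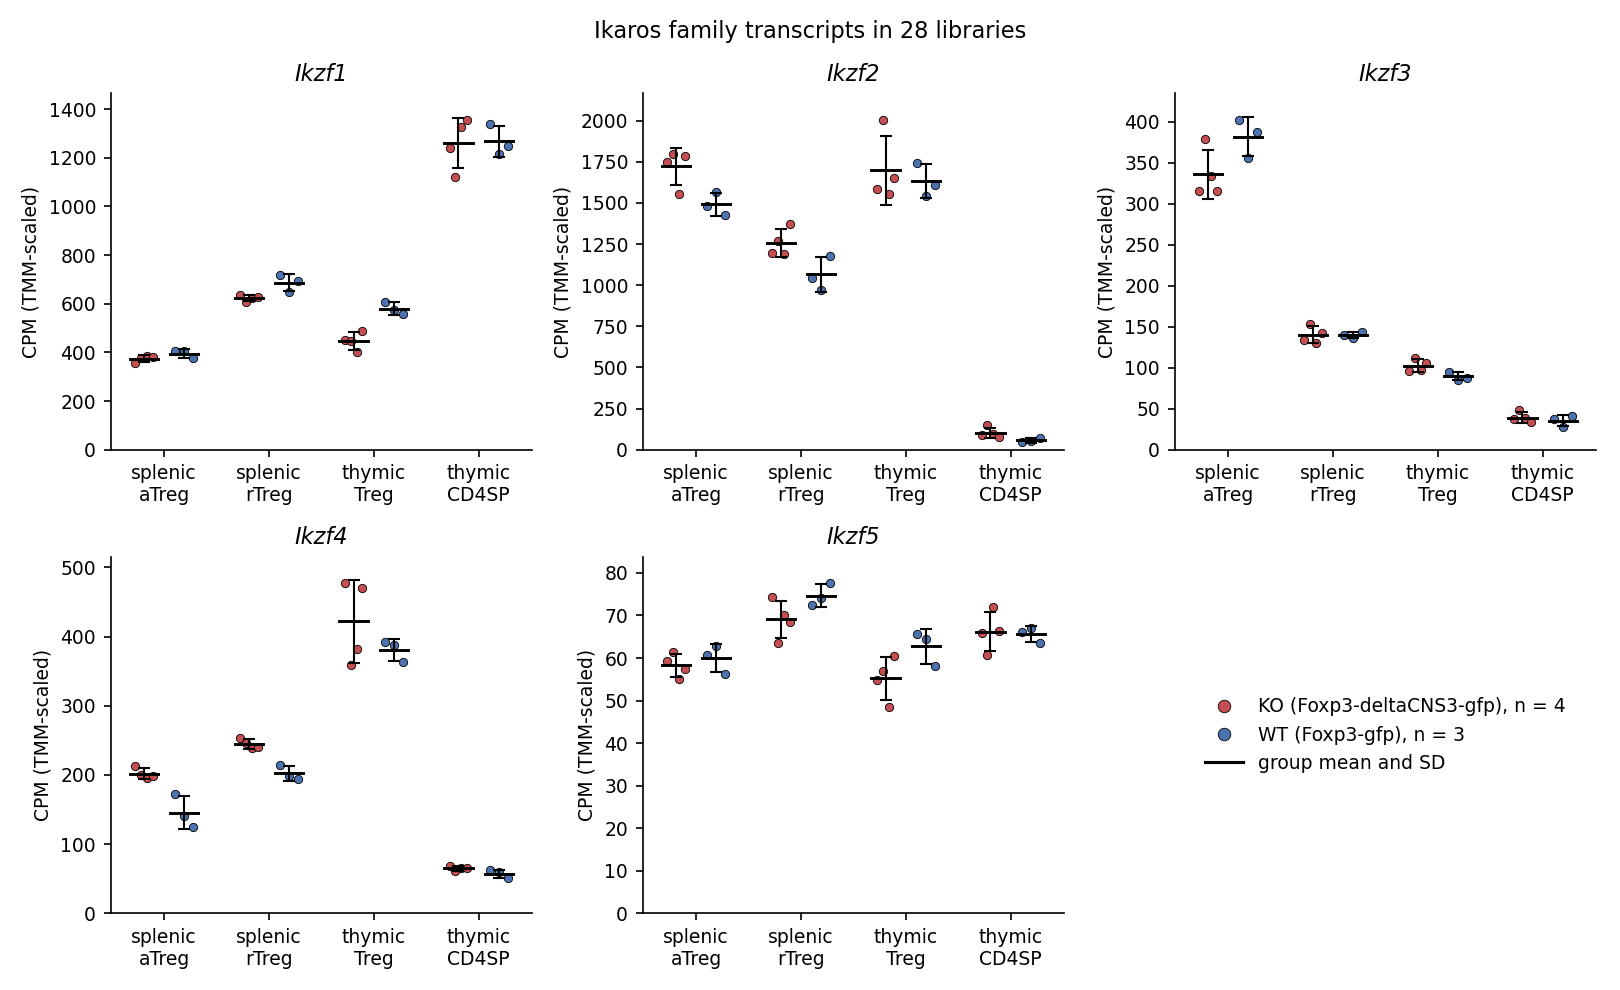
CPM scaled by the trimmed mean of M-values (vertical axes, linear, a scale for each panel) of the 5 members in the 28 libraries by population (horizontal axes), KO (n = 4) and WT (n = 3). Points are libraries and lines are group means with SD; Ikzf1 is highest in CD4SP cells, Ikzf2 and Ikzf4 are lowest there, Ikzf3 peaks in aTreg cells, and Ikzf5 is nearly level.

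The populations were then compared within each genotype by edgeR's quasi-likelihood test over all 13338 genes, with p-values adjusted by the Benjamini-Hochberg method and called under 0.05. Comparisons that follow each other share libraries, so their results are given side by side and not as separate evidence. Libraries of one genotype and number also tended to deviate together across populations (31 of 42 pairs with r over 0.1). The main fit does not model this. In aTreg against rTreg cells, Ikzf3 rose and Ikzf2 rose less, while Ikzf1, Ikzf4 and Ikzf5 fell, in both genotypes. All 5 members passed the test in KO cells, where 41.6% of all tested genes did, and all 5 passed in WT cells, where 37.9% did. Ikzf3 was higher in aTreg cells by a log2 fold change of 1.26 (SE 0.0963) in KO and 1.45 (SE 0.112) in WT, that is 2.39-fold and 2.73-fold, with adjusted p = 2.62e-11 and 3.6e-11. Ikzf1 had a log2 fold change of -0.73 (SE 0.0608) in KO and -0.80 (SE 0.0703) in WT, with adjusted p = 1.2e-10 and 5.13e-10. The log2 fold changes of Ikzf2 were 0.45 in KO and 0.48 in WT, those of Ikzf4 were -0.28 in KO and -0.47 in WT, and those of Ikzf5 were -0.24 in KO and -0.32 in WT.

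The least secure of these was Ikzf2 in WT cells, with an adjusted p of 0.0161 that rose to as much as 0.0713 when WT rTreg library 2 or WT aTreg library 2 was left out. The same comparison separated the marker lists, with 7 of 7 activated Treg markers higher and 6 of 6 resting T cell markers lower in aTreg cells of both genotypes. In aTreg cells 9 of 10 myeloid markers were also higher in both genotypes, at a summed level of 369 ± 7.65 CPM in KO and 464 ± 48.1 CPM in WT aTreg cells, against 149.5 ± 13.2 CPM in KO and 149.2 ± 5.51 CPM in WT rTreg cells. The part of such cells in the differences between populations was not tested.

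Between rTreg and thymic Treg cells, Ikzf2 and Ikzf4 were lower in the spleen and Ikzf1, Ikzf3 and Ikzf5 were higher. All 5 members passed in KO cells, against 42.9% of all tested genes, and all 5 in WT cells, against 30.6%. Ikzf4 showed the clearest difference, with a log2 fold change of -0.79 (SE 0.0868) in KO and -0.91 (SE 0.1004) in WT by edgeR's quasi-likelihood test (adjusted p = 4.54e-08 and 6.26e-08), that is 0.580 and 0.531 of the thymic level. Ikzf3 had log2 fold changes of 0.45 in KO and 0.65 in WT, and Ikzf2 of -0.43 in KO and -0.62 in WT. Ikzf1 had log2 fold changes of 0.48 in KO and 0.24 in WT, and Ikzf5 of 0.32 in KO and 0.25 in WT. The calls of Ikzf5 in WT cells and Ikzf2 in KO cells were each lost in at least 1 fit that left a library out. They reached adjusted p = 0.0901 for Ikzf5, without WT thymic Treg library 3 or WT rTreg library 3, and 0.0562 for Ikzf2, without KO thymic Treg library 2. Myeloid markers were lower in rTreg than in thymic Treg cells for 9 of 10 genes in KO and 8 of 10 in WT cells.

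Of the 3 population comparisons, thymic Treg against thymic CD4SP cells had the largest share of genes past the test. Of the 5 members, 5 passed the test in KO cells, against 56.5% of all tested genes, and 4 in WT cells, against 48.3%. Ikzf2 was higher in Treg cells by a log2 fold change of 4.06 (SE 0.155) in KO and 4.86 (SE 0.186) in WT, that is 16.7-fold and 29.0-fold (edgeR's quasi-likelihood test, adjusted p = 8.28e-19 and 1.89e-18). Ikzf4 was higher by 2.70 (SE 0.0926) in KO and 2.74 (SE 0.107) in WT on the log2 scale, that is 6.50-fold and 6.67-fold. Ikzf3 was higher by 1.39 in KO and 1.33 in WT on the log2 scale.

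Ikzf1 ran the other way, with a log2 fold change of -1.50 (SE 0.0617) in KO and -1.13 (SE 0.0705) in WT, that is 0.354 and 0.458 of the CD4SP level. Ikzf5 had a log2 fold change of -0.26 (adjusted p = 0.00161 by edgeR's quasi-likelihood test) in KO. In WT its value was -0.07 (95% interval -0.22 to 0.09), which did not pass. In this comparison 8 of 8 Treg markers were higher in thymic Treg cells of both genotypes. Myeloid markers were higher too, for 10 of 10 genes in KO and 9 of 10 in WT cells. Their summed level was 686 ± 271 CPM in KO and 332 ± 67.3 CPM in WT thymic Treg cells, against 134 ± 74.8 CPM in KO and 97.9 ± 3.69 CPM in WT CD4SP cells, and their part in these differences was not tested.

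**Figure D3:**
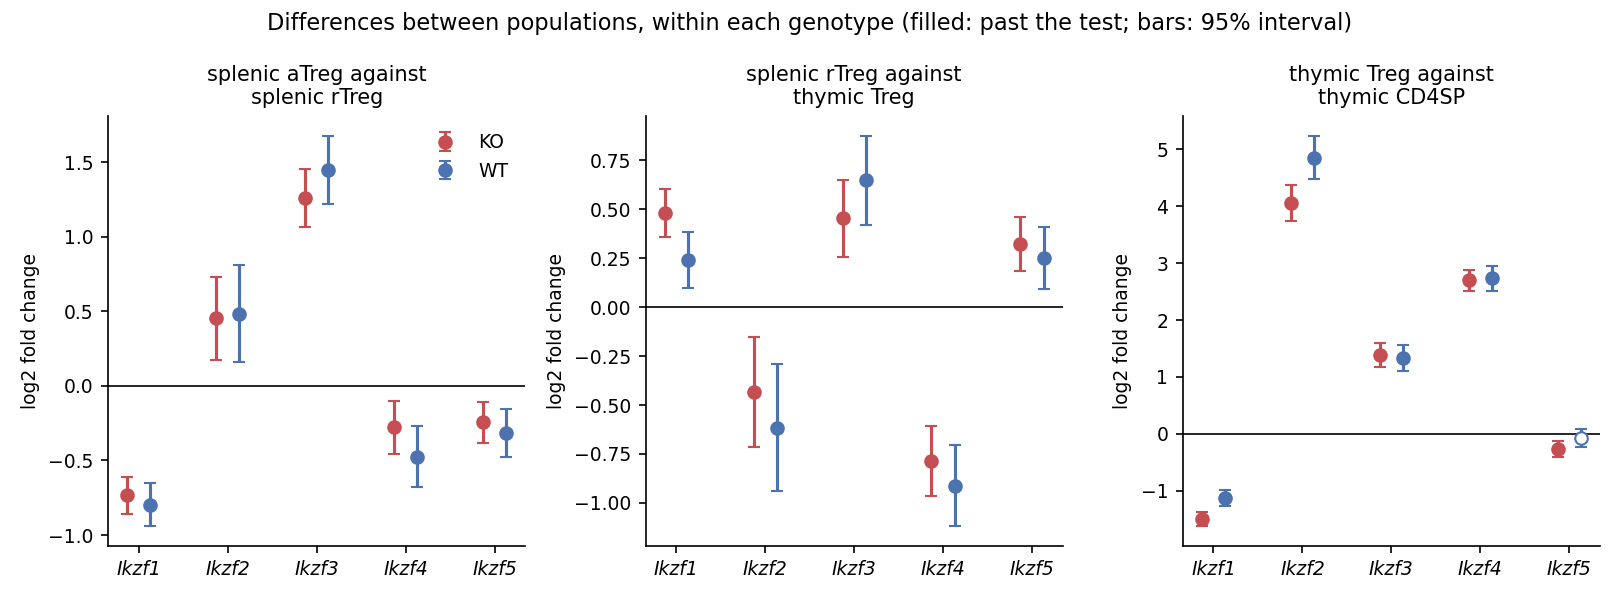
Log2 fold change of each member (vertical axes, scales differ by panel) between populations, within KO and within WT cells, with 95% intervals; filled points passed the test. Ikzf2 and Ikzf4 stand far above 0 in thymic Treg against CD4SP cells, and only Ikzf5 in WT cells of that comparison is open.

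The genotypes were compared within each population. In thymic Treg cells 1 of 5 members passed the test, against 9.34% of all tested genes. Ikzf1 averaged 447 ± 35.6 CPM in KO and 580.2 ± 25.3 CPM in WT thymic Treg cells (SD, n = 4 and 3), and its log2 fold change was -0.38 (SE 0.0650), or 0.770 of the WT level (edgeR's quasi-likelihood test, adjusted p = 0.00069). It was lower in 4 of 4 KO libraries than in each of the WT libraries. Leaving out any 1 library kept the call, with log2 fold changes of -0.42 to -0.33. The call was kept in 10 of 11 other settings, where the adjusted p ranged from 2.24e-06 to 0.442.

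The setting that lost it was a fit with the no-gene read share as a covariate, where the log2 fold change of Ikzf1 was -0.21 (adjusted p = 0.442). That share separated the 2 thymic Treg groups, at 42.3 to 45.0% in KO and 46.3 to 49.3% in WT. Under the same covariate the number of genes called over the whole table fell to 45, against 1246. With the myeloid sum as a covariate the Ikzf1 value was -0.30 (adjusted p = 0.0387), and with the B cell sum -0.33 (adjusted p = 0.00414). Without KO libraries 1 and 2, which held the most myeloid counts, it was -0.39 (adjusted p = 0.0106).

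The other members of thymic Treg cells did not pass. Ikzf3 averaged 102 ± 7.59 CPM in KO and 89.3 ± 4.93 CPM in WT, without overlap, and had a log2 fold change of 0.20 (95% interval -0.02 to 0.41). Ikzf5 had a log2 fold change of -0.18 (95% interval -0.33 to -0.04), with an unadjusted p of 0.0173 and an adjusted p of 0.104 in the fit across all genes by edgeR. Ikzf4 had 0.15 (95% interval -0.04 to 0.34) and Ikzf2 had 0.06 (95% interval -0.25 to 0.36). Several marker lists separated the thymic Treg genotypes without overlap in their summed levels. Beside the member values, 5 of 7 activated Treg markers were higher in KO thymic Treg cells, with a summed level of 1594 ± 114 CPM in KO and 1130 ± 92.7 CPM in WT. Treg markers summed to 7799 ± 191 CPM in KO and 6660 ± 240 CPM in WT, with 3 of 8 higher (Capg, Tnfrsf18 and Tnfrsf4). CD8 T cell markers summed to 496 ± 33.8 CPM in KO and 329 ± 24.8 CPM in WT, with Ccl5 higher and Eomes lower of 7 genes. Much of that difference was Ccl5, which averaged 269.5 CPM in KO and 138.3 CPM in WT. The median log2 fold change of the CD8 T cell list was -0.09, against 0.02 over all tested genes. Immature thymocyte markers summed to 269 ± 14.7 CPM in KO and 356 ± 22.5 CPM in WT, with 1 of 7 lower, Cd1d1. Stromal markers summed to 11.6 ± 2.13 CPM in KO and 6.18 ± 0.158 CPM in WT, with 1 of 5 tested genes higher, Col3a1. B cell markers summed to 58.4 ± 1.99 CPM in KO and 39.4 ± 0.967 CPM in WT, although 0 of 10 were higher by edgeR's test and 1, Cr2, was lower; 5 had an unadjusted p under 0.05, and DESeq2 called 1 and limma voom 4. Of the 10 myeloid markers, 4 were higher by edgeR (Cst3, Itgam, Fcgr3 and Cd68), while DESeq2 called 3 and limma voom 10. Beside the same 0.02 over all tested genes, the median log2 fold change was 1.17 for the myeloid, 0.78 for the B cell and 1.55 for the stromal list. It was 0.63 for the activated Treg, 0.25 for the Treg and -0.55 for the immature thymocyte list. Dendritic markers summed to 727 ± 175 CPM in KO and 484 ± 73.3 CPM in WT, with overlap. Their median was 0.55, and 0 of 9 tested genes passed by edgeR. The macrophage gene Lyz2 averaged 348 CPM in KO and 135 CPM in WT thymic Treg cells, while the B cell factor Pax5 averaged 0.0567 CPM in KO and was at 0 in all WT thymic Treg libraries. Beyond the myeloid and B cell covariate fits above, the part of these cells and of activation in the Ikzf1 difference was not tested.

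In CD4SP cells 1 of 5 members passed, against 0.195% of all tested genes. Ikzf2 averaged 102 ± 31.8 CPM in KO and 56.2 ± 13.5 CPM in WT, a log2 fold change of 0.85 (95% interval 0.53 to 1.17, adjusted p = 0.0061, edgeR's quasi-likelihood test). It was higher in 4 of 4 KO libraries than in any WT library. Without KO library 2, the library that stood apart, the log2 fold change was 0.62 (adjusted p = 0.0143). Without WT library 1 it was 0.71 (adjusted p = 0.111) and without WT library 2 it was 0.81 (adjusted p = 0.0829), so the call rested in part on the WT libraries. When only the 7 CD4SP libraries were fitted, the value was 0.86 with an unadjusted p of 0.00186 and an adjusted p of 0.997, and the adjusted p over the other settings began at 0.000335.

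Foxp3 moved the opposite way to Ikzf2 in the same CD4SP libraries. It was lower in KO by a log2 fold change of -1.25 (adjusted p = 8.27e-05, edgeR's quasi-likelihood test). For each Foxp3 count there were 70.3 ± 6.29 Ikzf2 counts in KO CD4SP cells, with a range of 62.1 to 77.2, and 16.6 ± 3.36 in WT CD4SP cells, with a range of 13.8 to 20.4. In thymic Treg cells the same ratio was 3.20 ± 0.868 in KO and 2.50 ± 0.0991 in WT, in rTreg cells 2.31 ± 0.246 in KO and 1.74 ± 0.288 in WT, and in aTreg cells 3.33 ± 0.341 in KO and 2.44 ± 0.207 in WT. The ratio was thus higher in CD4SP than in Treg groups, but CD4SP cells were labelled as non-Treg, so little Foxp3 is a given there. It rested on 31 to 53 Foxp3 counts in each KO and 87 to 134 in each WT CD4SP library. The lower Foxp3 in KO CD4SP cells also raises the KO ratio, so the ratio is not separate evidence on Ikzf2.

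Il2ra, the interleukin-2 receptor alpha chain, was 21.6, 133, 21.9 and 17.3 CPM in KO CD4SP libraries, against 8.38, 7.77 and 11.6 CPM in WT CD4SP libraries. Lrrc32, which encodes the Treg surface protein GARP, averaged 1.41 ± 0.324 CPM in KO and 0.310 ± 0.206 CPM in WT CD4SP cells. Il2ra and Lrrc32 were thus higher in KO CD4SP cells, where Foxp3 was lower. Of the 8 Treg markers, 3 were higher (Il2ra, Lrrc32 and Ctla4) and 1, Foxp3, was lower. In CD4SP cells 0 of 10 myeloid and 0 of 10 B cell markers passed by edgeR, DESeq2 or limma voom, with 3 and 4 at an unadjusted p under 0.05 in edgeR. Their sums reached 246 CPM and 31.4 CPM in KO library 2. The median log2 fold change was 0.75 for the myeloid list and 1.15 for the B cell list, against 0.00 over all tested genes. Of the 10 myeloid markers at most 1 was at 0 in any KO library and 0 in any WT library, and of the 10 B cell markers at most 1 in KO and 2 in WT. With the myeloid sum as a covariate the Ikzf2 log2 fold change in CD4SP cells was 0.68 (adjusted p = 0.0029, edgeR), and with the B cell sum it was 0.67 (adjusted p = 0.00601, edgeR).

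**Figure D4:**
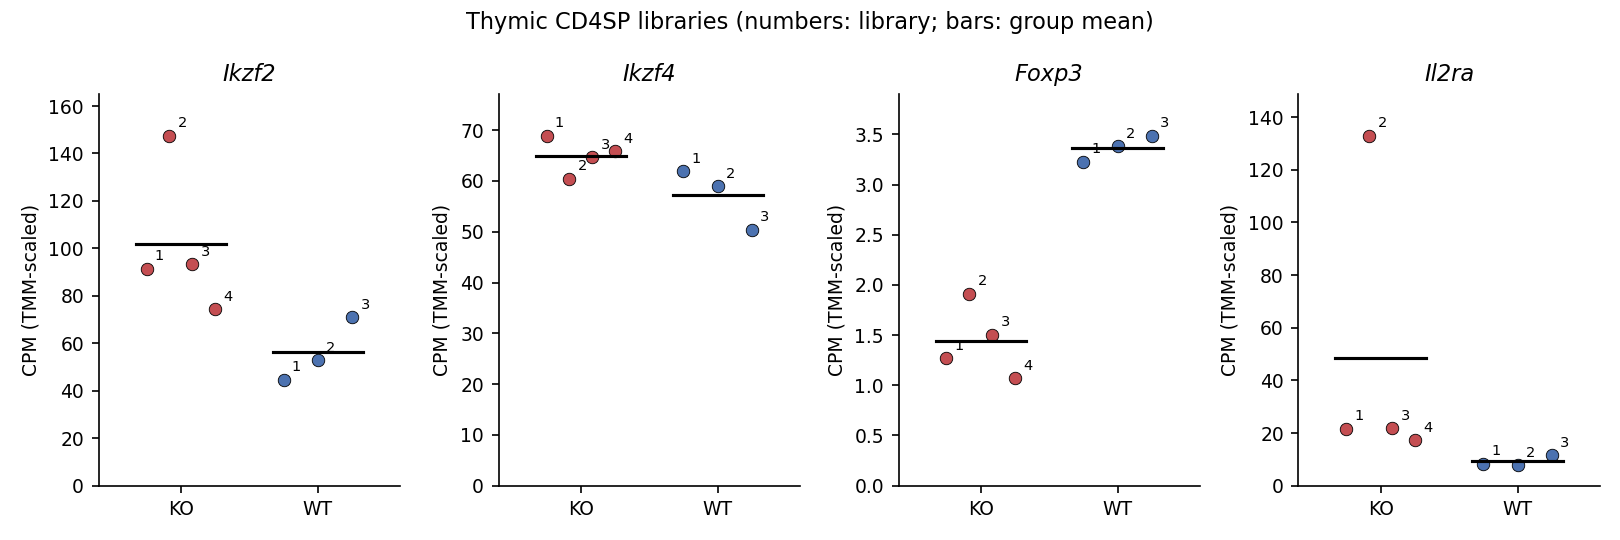
CPM (vertical axes, linear, a scale for each panel) of Ikzf2, Ikzf4, Foxp3 and Il2ra in each KO (n = 4) and WT (n = 3) thymic CD4SP library (horizontal axes); points are numbered by library and lines are group means. Ikzf2 and Il2ra are higher in each KO library than in each WT library, with library 2 highest, and Foxp3 is lower in each KO library.

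The other members did not pass in CD4SP cells. Ikzf4 averaged 65.0 ± 3.53 CPM in KO and 57.1 ± 6.00 CPM in WT, with a log2 fold change of 0.19 (95% interval -0.01 to 0.38). Ikzf3 had a log2 fold change of 0.14 (95% interval -0.08 to 0.36). Ikzf1 had -0.01 (95% interval -0.14 to 0.13) and Ikzf5 had 0.01 (95% interval -0.13 to 0.16).

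In rTreg cells 0 of 5 members passed edgeR's test, against 0.135% of all tested genes. In the same test Ikzf1, at an unadjusted p of 0.0413, ranked 728 of the 13338 genes. How many of all tested genes lay under 0.05 unadjusted was not counted. The count of members was 2 at an unadjusted p under 0.05, and 0 by DESeq2 and by limma voom. Those 2 were Ikzf4, with 245 ± 7.06 CPM in KO and 202 ± 11.2 CPM in WT and a log2 fold change of 0.28 (95% interval 0.08 to 0.47), and Ikzf1, with 623 ± 11.7 CPM in KO and 686 ± 34.96 CPM in WT and a log2 fold change of -0.14 (95% interval -0.27 to -0.01). Ikzf2 averaged 1258 ± 86.1 CPM in KO and 1065 ± 105 CPM in WT and had a log2 fold change of 0.24 (95% interval -0.06 to 0.54). The genotypes did not overlap for any of these 3, although none of them passed. The share of all tested genes without overlap was not counted. Ikzf3 had a log2 fold change of 0.00 (95% interval -0.21 to 0.21) and Ikzf5 of -0.11 (95% interval -0.26 to 0.04).

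In aTreg cells 0 of 5 members passed edgeR's test, against 0.03% of all tested genes, with 1 at an unadjusted p under 0.05 and 1 each by DESeq2 and by limma voom. That member was Ikzf4, with 202 ± 7.95 CPM in KO and 146 ± 24.3 CPM in WT, a log2 fold change of 0.47 (SE 0.0948, 95% interval 0.28 to 0.67) and an adjusted p of 0.0691 by edgeR. It ranked 6 of 13338 tested genes by p in that fit. Its adjusted p over the other settings ran from 0.00309 to 0.158, and 5 of 10 settings called it, DESeq2 (adjusted p = 0.00609) and limma voom (adjusted p = 0.0301) among them. Leaving out WT library 1, whose Ikzf4 level of 171.8 CPM was the highest of the WT libraries, gave a log2 fold change of 0.61 and a call. It was the only call among 7 fits that left a library out. Over those fits the log2 fold change ran from 0.36 to 0.61 and edgeR's adjusted p from 0.0143 to 0.437. The ratio of Ikzf4 to Foxp3 counts was 0.356 to 0.434 in KO and 0.208 to 0.263 in WT aTreg cells, without overlap. Foxp3, the lower term of that ratio, was itself 519 ± 24.0 CPM in KO and 612 ± 36.5 CPM in WT aTreg cells, also without overlap, with a log2 fold change of -0.24 (adjusted p = 0.556, edgeR). Activated Treg markers summed to 3812 ± 149 CPM in KO and 4203 ± 141 CPM in WT aTreg cells, and CD8 T cell markers to 383 ± 57.2 CPM in KO and 274 ± 10.7 CPM in WT, neither with overlap. The median log2 fold change was -0.11 for the activated Treg list and 0.04 for the CD8 T cell list, against 0.00 over all tested genes. Of each list 0 of 7 genes passed by edgeR (1 each at an unadjusted p under 0.05), DESeq2 or limma voom. Their part in the Ikzf4 values was not tested. Myeloid markers summed to less in KO than in WT aTreg cells in CPM, as given above, although 0 of 10 passed by edgeR (1 at an unadjusted p under 0.05), DESeq2 or limma voom. Ikzf2 had a log2 fold change of 0.21 (95% interval -0.10 to 0.51), Ikzf3 of -0.19 (95% interval -0.39 to 0.02), Ikzf1 of -0.08 (95% interval -0.21 to 0.06) and Ikzf5 of -0.04 (95% interval -0.19 to 0.11).

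Averaged over aTreg, rTreg and thymic Treg cells, a comparison added after the values had been seen, 2 of 5 members passed, against 4.66% of all tested genes. Ikzf4 was higher in KO by a log2 fold change of 0.30 (SE 0.0543), or 1.23-fold, with adjusted p = 0.00151 by edgeR's quasi-likelihood test. Ikzf1 was lower, with a log2 fold change of -0.20 (SE 0.0376), or 0.872 of the WT level, and adjusted p = 0.00217. The Ikzf4 call was kept in 11 of 11 other settings and in 21 of 21 fits that left a library out. The Ikzf1 call was kept in 10 of 11 and in 21 of 21, and was lost with the no-gene read share as a covariate (adjusted p = 0.0607). Ikzf2 had a log2 fold change of 0.17 (95% interval -0.01 to 0.34), Ikzf5 of -0.11 (95% interval -0.20 to -0.03) and Ikzf3 of 0.00 (95% interval -0.12 to 0.13), and none of these passed. Foxp3 was lower in KO on the same average, with a log2 fold change of -0.23 (adjusted p = 0.00757, edgeR). The average uses the same libraries as the comparisons by population and is not separate evidence. It also treats same-numbered libraries of one genotype as independent, although 31 of 42 such pairs deviated together with r over 0.1. The block fitted for this average used the library number alone, so no setting run here models that sharing. Its SE and adjusted p may therefore be too small.

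Across the 4 populations the log2 fold change of Ikzf1 was negative in 4 of 4, and those of Ikzf2 and Ikzf4 were positive in 4 of 4. The sign was not secure for Ikzf1 in CD4SP cells (-0.01, and -0.03 to 0.02 over other settings). Nor was it for Ikzf2 in thymic Treg cells (0.06, and -0.36 to 0.16 over other settings). The share of all tested genes with 1 sign in all 4 populations was not counted. Whether the effect of genotype differed between populations was tested directly, and 0 of 15 differences passed by edgeR. The largest were those between thymic Treg and CD4SP cells, where 0.615% of all tested genes passed. The thymic Treg effect minus the CD4SP effect was -0.37 (SE 0.0922) on the log2 scale for Ikzf1, with an unadjusted p of 0.000423 and an adjusted p of 0.0613 in edgeR's fit. It was -0.80 (SE 0.212) for Ikzf2, with an unadjusted p of 0.000834 and an adjusted p of 0.0834 in the same edgeR fit. Among 13338 tested genes ordered by edgeR's p, Ikzf1 ranked 92 and Ikzf2 ranked 132 for thymic Treg minus CD4SP. Ikzf1 ranked 512 for rTreg minus thymic Treg. At an unadjusted p under 0.05 the counts of members were 2 for thymic Treg minus CD4SP, 1 for rTreg minus thymic Treg and 0 for aTreg minus rTreg. How many of all tested genes lay under that threshold was not counted, so these counts are not read as results. DESeq2 called 1, 0 and 0 members and limma voom 0, 0 and 0, but DESeq2 also called more genes over the whole table than edgeR. By edgeR's adjusted p, 0.03% of all tested genes passed for rTreg minus thymic Treg and 0% for aTreg minus rTreg. The calls for thymic Treg minus CD4SP depended on the setting, and between 0 and 2 members passed over all settings run, the 2 being Ikzf1 and Ikzf2. Both passed in edgeR's fit with genotype and library number as a block (adjusted p = 0.0314 each).

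**Figure D5:**
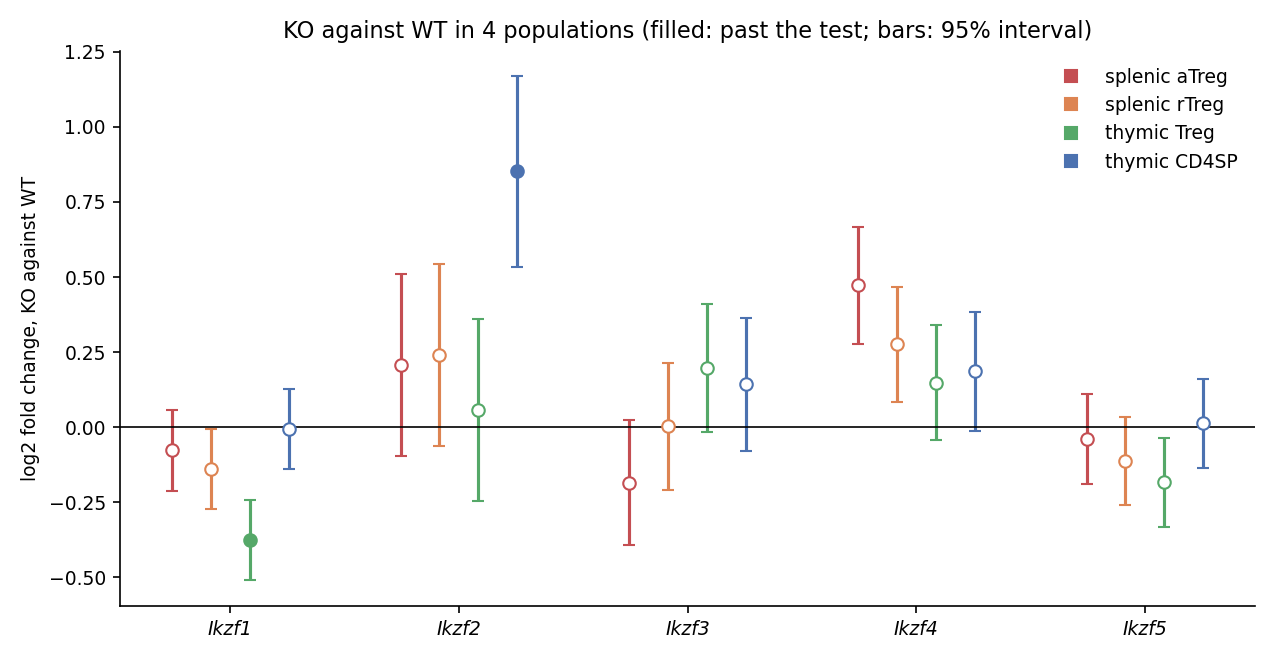
Log2 fold change, KO against WT (vertical axis), of the 5 members in 4 populations, with 95% intervals; filled points passed the test. The filled points are Ikzf1 in thymic Treg cells (-0.38) and Ikzf2 in CD4SP cells (0.85), and Ikzf4 lies above 0 in all 4 populations.

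Genes that work with the family were followed as 4 lists, chosen with earlier results of these data known. The first list held members of the NuRD complex and other corepressors, through which Ikaros proteins repress genes. In thymic Treg cells, where 9.34% of all tested genes passed, 0 of 17 were higher and 1 was lower in KO. The lower gene was Sin3a, a corepressor scaffold, with a log2 fold change of -0.22 (adjusted p = 0.0369, edgeR's quasi-likelihood test). The list's median log2 fold change was 0.00, against 0.02 over all tested genes. Genes for turnover and modification of Ikaros proteins, such as Crbn, the cereblon substrate receptor, gave 0 of 11 calls in thymic Treg cells by edgeR, 2 at an unadjusted p under 0.05, 1 by DESeq2 and 0 by limma voom. The same 9.34% stands beside the edgeR calls, and the unadjusted share of all tested genes was not counted.

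Of 14 transcription factors described as FOXP3 partners, 0 were higher and 5 were lower in KO thymic Treg cells, with a list median of -0.12 on the log2 scale, against 0.02 over all tested genes. Of all tested genes 9.34% passed in this comparison, and with the no-gene read share as a covariate 45 did, against 1246. The 3 with the smallest p were Satb1, a chromatin organizer, Bach2, a repressor of effector genes, and Foxp1, a relative of Foxp3. Satb1 averaged 255 ± 19.8 CPM in KO and 365 ± 19.7 CPM in WT, a log2 fold change of -0.52 (adjusted p = 8.12e-05, edgeR). Bach2 had -0.39 and Foxp1 had -0.27, and the other 2 that fell were Tcf7 (-0.25) and Foxo1 (-0.24). Of 19 tested genes described as regulated by Ikaros family members, 3 were higher and 1 was lower, with a median of -0.03, and the same 9.34% stands beside this count. The higher ones were Ebi3, a subunit of interleukin-35, Il10, an inhibitory cytokine, and Il7r, the interleukin-7 receptor alpha chain. Ebi3 averaged 37.6 ± 6.16 CPM in KO and 21.1 ± 1.07 CPM in WT thymic Treg cells, a log2 fold change of 0.83 (adjusted p = 0.014, edgeR), and Il10 had 0.91 and Il7r 0.33. The gene that fell was Bcl6, a transcriptional repressor, at -0.47. Tcf7, Foxo1, Bcl6, Cd68, Ctla4, Lyz2 and Pax5 lie outside the rule for named genes and were chosen after their values were seen.

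In CD4SP, rTreg and aTreg cells 0 genes of any of the 4 lists passed edgeR's test between genotypes. At an unadjusted p under 0.05 the FOXP3 partners gave 2 in CD4SP, 3 in rTreg and 2 in aTreg cells, and the regulated genes gave 1, 3 and 1. The turnover list gave 0 in each, and the corepressors gave 0, 0 and 1. How many of all tested genes lay under that unadjusted threshold was not counted, so these counts are not read as results. Over these 3 populations DESeq2 called 1 gene of the lists, a FOXP3 partner in rTreg cells, and limma voom called 0. The average over the 3 Treg populations was added after the values had been seen, and 4.66% of all tested genes passed in it. There 3 of 14 FOXP3 partners were lower (Satb1 by -0.30, Bach2 by -0.23 and Foxp1 by -0.14 on the log2 scale). Of 19 tested regulated genes 2 were higher (Ebi3 by 0.51 and Bcl2, a survival factor, by 0.15).

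The same lists were counted between WT populations, where the share of all tested genes that passed was larger too. In aTreg against rTreg cells, where 37.9% of all tested genes passed, 0 corepressors were higher and 4 lower (Hdac1 -0.39, Chd3 -0.36 and Sin3a -0.25 on the log2 scale), with 8 regulated genes higher and 5 lower. Il10 was higher by 4.58 and Ebi3 by 2.71, while Bcl2 was lower by a log2 fold change of -1.94. Of the FOXP3 partners 2 were higher and 6 lower in aTreg cells, led by Satb1 (-1.83), Bach2 (-1.50) and Lef1 (-1.12), the last a factor of resting T cells. The turnover list gave 3 higher and 0 lower, with Crbn at 0.25.

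In WT rTreg against thymic Treg cells, where 30.6% of all tested genes passed, the counts were 1 higher and 3 lower for corepressors, 1 and 1 for turnover genes, 5 and 4 for regulated genes, and 4 and 4 for FOXP3 partners. Dtx1, a Notch pathway gene, was higher by 3.10 and Ebi3 was lower by a log2 fold change of -1.82. In WT thymic Treg against CD4SP cells, where 48.3% passed, the counts were 5 higher and 4 lower for corepressors, 2 and 4 for turnover genes, 9 and 4 for regulated genes, and 3 and 7 for FOXP3 partners. Ebi3 was higher by 8.95, Gata3, a T helper factor, by 1.32, and Tcf7, a factor of early T cells, had a log2 fold change of -1.34. Il10 was listed at 0 counts in WT CD4SP cells, so no fold is given for it.

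Across the 28 libraries the members differed in how their levels tracked each other. These correlations of log2(CPM + 1) are descriptions over libraries that share their population and genotype. Ikzf1 and Ikzf2 ran opposite, with r = -0.920 over 28 libraries and -0.700 over the 21 Treg libraries. Ikzf1 and Ikzf5 ran together among the Treg libraries (r = 0.799) and less over all 28 (r = 0.540). Ikzf3 and Ikzf4 had r = 0.472 over 28 libraries and -0.836 over the Treg libraries. Both were low in CD4SP cells, and Ikzf3 peaked in aTreg while Ikzf4 peaked in thymic Treg cells. Ikzf2 and Ikzf4 had r = 0.884 over all libraries and 0.313 over the Treg libraries.

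Among 8934 genes with a mean of at least 5 CPM, those whose levels were most like a member's over the 28 libraries were as follows. Ikzf1 was closest to Scml4 (r = 0.994), Pag1 (0.989) and Itgb3 (0.985), and Ikzf2 to Rln3 (0.993), Myo1e (0.993) and Tiam1 (0.990). Ikzf3 was closest to Cst7 (0.988), Vps54 (0.987) and Maf (0.985), and Ikzf4 to Spag16 (0.977), Swap70 (0.976) and Cyth3 (0.975). Ikzf5 was closest to Zfp871 (0.919), Herc1 (0.887) and Atp11b (0.886), the lowest values of the 5 members. Over the 8 group means the closest genes were Scml4 for Ikzf1, Slc43a1 for Ikzf2, Car5b for Ikzf3, Crim1 for Ikzf4 and Zfp871 for Ikzf5, so the top gene was the same for Ikzf1 and Ikzf5 on both measures.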

How the data were processed

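RNA was measured by sequencing in 28 libraries of CD4 T cells, and sample titles gave the groups and library numbers. Total RNA came from a TRIzol extraction, was amplified as cDNA with SMART and sequenced in read pairs on a HiSeq, per the labels' protocols. The tools named are HTSeq, STAR and Trimmomatic, with build mm10, per the submitters' processing notes. Versions, settings, annotation and strand handling were not given in the sources used here. Raw counts per gene symbol, not normalised, are what the authors deposited.

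Table lines without a gene did not enter library sizes, and reads in no gene made up 42.3 to 49.7% of reads in genes, in several genes or in none. Genes were filtered with filterByExpr in edgeR 4.0.16 (R 4.3.3), scaled by the trimmed mean of M-values (TMM, factors 0.970 to 1.04), and fitted over all 8 groups with the quasi-likelihood test and Benjamini-Hochberg adjustment over 13338 genes, called under 0.05. CPM uses these TMM-scaled library sizes, so counts of 22037995 to 40754492 per library stand behind it. Of the symbols listed, 3712 had 0 counts throughout. Spread is pooled over 20 residual degrees of freedom, and intervals are 95%. Chi-square per degree of freedom between libraries of one group was 7.08 to 37.6 over 36 pairs, so no pair agreed within sampling noise.

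Alternatives were RLE size factors, DESeq2 1.42.0, limma 3.58.1 voom, no filter, a stricter filter (5 CPM in 3 libraries), only the groups compared, the library number as a block, 3 covariates (share of reads in no gene, myeloid sum, B cell sum) and leaving out each library. The average over Treg populations, and fits without KO thymic Treg libraries 1 and 2, were added after seeing the data. Scripts were tested on simulated data. Positions and exon lengths came from GENCODE M21 and promoters from RefSeq GRCm38.p6. The 5 members are named throughout. From each related list up to 3 genes past the test with the smallest p are named, and for each member the 3 genes with the highest r of log2(CPM + 1). The members and lists were chosen with earlier results of these data known.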

Additional observations from a re-analysis of the deposited data

How the results depend on the processing

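Of the member fold changes under other settings, 544 kept their direction and their side of the threshold, 3 lost a call, 11 gained one and 17 turned sign. Under leaving out each library these counts were 626, 7, 7 and 25, and no fold change that turned sign had passed the test. In thymic Treg cells the count of members past the test was 0 with the no-gene read share as a covariate and 1 to 2 on leaving out a library, with Ikzf5 added (adjusted p = 0.042, edgeR) without KO library 4. In CD4SP cells it was 0 with only the groups compared and 0 to 1 on leaving out a library. In aTreg cells it was 1 without a filter, with DESeq2, with limma voom, with the replicate block and with the no-gene read share as a covariate, and 0 to 1 on leaving out a library. For the thymic Treg effect minus the CD4SP effect it was 1 without a filter, with the stricter filter and with DESeq2, 2 with the replicate block (Ikzf1 and Ikzf2, adjusted p = 0.0314 each, edgeR), and 0 to 1 on leaving out a library. For the average over Treg populations it was 1 with the no-gene read share as a covariate and 3 with only the groups compared, which added Ikzf2 (adjusted p = 0.04, edgeR).

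Values that turned sign are on the log2 scale. In thymic Treg cells Ikzf2 was -0.36 with the myeloid covariate, -0.15 with the B cell covariate and -0.0284 without KO libraries 1 and 2, and Ikzf3 was -0.0153 with the myeloid covariate. In CD4SP cells Ikzf1 was 0.00144 with RLE factors, 0.0015 with DESeq2, 0.0159 with the myeloid covariate and 0.0234 with the B cell covariate, and Ikzf5 was -0.00652 with the no-gene read share. In rTreg cells Ikzf3 was -0.00271 without a filter, -0.000216 with limma voom, -0.0298 with the no-gene read share and -0.0121 with the B cell covariate. For the average, Ikzf3 was -0.00105 without a filter, -0.0421 with the myeloid covariate, -0.0437 with the B cell covariate and -0.00101 without KO thymic Treg libraries 1 and 2. On leaving out a library, ranges that crossed 0 were -0.0329 to 0.105 for Ikzf2 in thymic Treg cells, -0.0439 to 0.0446 for Ikzf1 and -0.0294 to 0.0523 for Ikzf5 in CD4SP cells, -0.0434 to 0.0361 for Ikzf3 in rTreg cells, -0.0172 to 0.0189 for Ikzf3 in the average, -0.0655 to 0.194 for Ikzf3 and -0.101 to 0.0437 for Ikzf4 in the thymic Treg effect minus the CD4SP effect, and -0.108 to 0.0312 for Ikzf2 in the aTreg effect minus the rTreg effect. The cause was not tested.

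The number of genes called over the whole table also moved. In thymic Treg cells it was 1246, against 401 with the myeloid covariate, 450 without KO libraries 1 and 2, and, on leaving out 1 library, 497 for WT 1, 546 for WT 2 and 766 for KO 3. In CD4SP cells it was 26, against 55 with DESeq2, 4 with limma voom, 0 with only the groups compared and 15 without WT library 2. In aTreg cells it was 4, against 13 with DESeq2, 8 with limma voom, 7 with only the groups compared, 12 with the replicate block, 13 with the no-gene read share and, on leaving out 1 library, 0 for WT 2, 1 for KO 4, 2 for WT 3, KO 1, KO 2 or KO 3, and 6 for WT 1. For the average it was 621, against 253 with that share and 402 to 743 on leaving out 1 library, lowest without WT aTreg library 2, and for the thymic Treg effect minus the CD4SP effect it was 82, against 263 with DESeq2, 174 with the replicate block, 32 with only the groups compared and 40 to 162 on leaving out 1 library (40 without WT CD4SP 2, 43 without WT thymic Treg 1, 51 without WT thymic Treg 2, 125 without KO CD4SP 2 and 162 without KO thymic Treg 4). In rTreg cells it was 18, against 48 with DESeq2, 28 with limma voom, 32 with the B cell covariate and, on leaving out 1 library, 6 for WT 1, 7 for WT 2 or KO 4, 8 for KO 1, 9 for WT 3 or KO 2 and 14 for KO 3. For the rTreg effect minus the thymic Treg effect it was 4, against 38 with DESeq2, 10 with the replicate block, 7 without a filter and with limma voom, 8 with the stricter filter, and 3 to 25 on leaving out 1 library (25 without WT rTreg 3, 16 without KO thymic Treg 4 and 8 without KO thymic Treg 2). For the aTreg effect minus the rTreg effect it was 0, against 1 with DESeq2, with the replicate block and without KO rTreg library 1.

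The library numbers were not treated as pairs. KO and WT libraries of one number and population had deviations that correlated at -0.101 to 0.303 (5 of 12 pairs over 0.1), and libraries of one genotype and number in different populations at -0.0148 to 0.369 (31 of 42 over 0.1). With different numbers, 7 of 108 such pairs of one genotype were over 0.1, and the median r was -0.0647, against 0.141 for the same number. Same-numbered libraries of one genotype thus shared variation across populations, which the main fit does not model. The replicate block changed no member call other than those given above. Depth limits little here, since the lowest count of any member in a library was 905.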
